A study of Rattus norvegicus with 16 samples.

Results

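The genes described here encode the proteins of the mitochondrial ribosome, and they were taken by name. A gene was a member when a probe set (the group of array probes that gives 1 value for a transcript) carried a single symbol that begins with Mrpl or Mrps and goes on with a digit. This gave 71 probe sets and 67 members among the 14324 genes tested, 41 of the large subunit (Mrpl) and 26 of the small subunit (Mrps). For the 4 members with 2 probe sets, Mrpl40, Mrpl41, Mrpl42 and Mrps11, the set with the higher mean over the 16 arrays was taken. By comparison with bacterial ribosomes, 24 large and 17 small subunit members have a bacterial counterpart, and the other 17 and 9 are found only in mitochondria.

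Mitochondria make a few of their own proteins, core subunits of the respiratory chain, on ribosomes of their own. The RNA of these ribosomes comes from mitochondrial DNA, while all of their proteins are encoded in the nucleus, made in the cytosol and imported. The large subunit forms peptide bonds and the small subunit reads the messenger RNA. Photoreceptors are among the most oxygen-consuming cells of the body, and the respiratory chain is dense in them.

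Expression in the retina of newborn rats was read on 16 single-colour arrays in a model of oxygen-induced retinopathy, in which changing oxygen levels disturb vessel growth in the immature retina. The study set the F344 strain (Fischer) against the SD strain (Sprague Dawley), 1 of them known as resistant and the other as susceptible to the disease. Treated litters and their mothers breathed 80% and 21% oxygen in turns of 24 h from at most 12 h after birth, here called hyperoxia, and controls of the same age stayed in room air. Each of the 8 groups (F344 or SD, hyperoxia or room air, post-natal day 5 or 6) had 2 arrays, and each array held RNA pooled from several rats. Which oxygen level came just before retinae were taken on either day is not said in the labels, and the design text names 3 rats and 2 litters without making clear whether that is the make-up of 1 pool or of both. P-values therefore measure only the spread between pools.

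All values are log2 array values. Errors after a log2 change are standard errors from limma with n = 2 arrays per group, and a gene was called when its p, adjusted over all genes tested, was under 0.05. Array medians over all probe sets lay between 5.452 and 5.524. Replicate 2 of F344 hyperoxia day 6 stood apart from the other arrays, with the lowest interquartile range (2.813), and the day 6 changes of the members described below are also given without it where that ends a call or moves a value by over 1.5 times. Of 14 retinal markers 10 were measured, and the photoreceptor factor Crx averaged 10.8, the neural factor Pax6 11.0 and the Muller glia gene Rlbp1 10.6, while the ganglion cell factor Pou4f1, at 5.55, was near the array median. The lens genes Lim2 and Mip averaged 4.08 and 4.99, and Bfsp1 and Crygs also averaged below the array medians. The lens gene Cryba1, however, lay between 5.269 and 7.702 over the arrays. Of the pigment epithelium, Rpe65 averaged 4.27, and Best1, Lrat and Mlana were below the array medians too. Ttr of that tissue averaged 8.98, and Tyrp1 lay between 5.931 and 7.437. How much RNA of these tissues the pools held was not tested. In these whole-retina pools, fewer cells of a type and less RNA per cell cannot be told apart. All 67 members had a mean above 5.48, the median of all probe sets, between 5.73 (Mrpl14) and 9.76 (Mrpl42).

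Promoters of 4 members called on day 6 are shown first, because they carry the short sequences for which promoters of mitochondrial protein genes are known. RefSeq gives a window from 250 bases before to 50 bases after the gene's start, in rat build GRCr8, for 54 members and for 11806 tested genes in all. The windows printed are those of Mrps18b (chr20:2842756-2843055, plus strand), Mrps18a (chr9:22367331-22367630, minus strand), Mrpl48 (chr1:164351327-164351626, minus strand) and Mrpl49 (chr1:212779278-212779577, minus strand). Each reads 5′ to 3′ in the gene's direction. Capitals mark the core letters CCGGAAG of the ETS factor GABP, CGCATGCG of NRF1 and AAGATGGC of YY1 on either strand, so that CTTCCGG is the GABP core read on the other strand.

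Mrps18b: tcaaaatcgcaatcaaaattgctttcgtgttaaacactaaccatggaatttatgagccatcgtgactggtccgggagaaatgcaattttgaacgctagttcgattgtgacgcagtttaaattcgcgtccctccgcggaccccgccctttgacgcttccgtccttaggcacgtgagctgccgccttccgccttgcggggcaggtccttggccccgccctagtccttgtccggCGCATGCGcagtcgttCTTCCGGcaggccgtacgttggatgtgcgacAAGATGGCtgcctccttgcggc
Mrps18a: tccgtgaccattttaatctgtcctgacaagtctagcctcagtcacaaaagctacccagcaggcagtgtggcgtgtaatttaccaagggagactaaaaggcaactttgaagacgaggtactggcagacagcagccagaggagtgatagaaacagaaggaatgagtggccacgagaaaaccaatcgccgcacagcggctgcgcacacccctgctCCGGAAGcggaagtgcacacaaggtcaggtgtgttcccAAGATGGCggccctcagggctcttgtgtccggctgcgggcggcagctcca
Mrpl48: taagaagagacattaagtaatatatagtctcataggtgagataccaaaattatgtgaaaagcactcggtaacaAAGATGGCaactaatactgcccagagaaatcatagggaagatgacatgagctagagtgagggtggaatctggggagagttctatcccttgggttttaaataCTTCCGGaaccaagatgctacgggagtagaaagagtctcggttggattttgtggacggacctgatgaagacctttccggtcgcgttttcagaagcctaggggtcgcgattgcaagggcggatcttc
Mrpl49: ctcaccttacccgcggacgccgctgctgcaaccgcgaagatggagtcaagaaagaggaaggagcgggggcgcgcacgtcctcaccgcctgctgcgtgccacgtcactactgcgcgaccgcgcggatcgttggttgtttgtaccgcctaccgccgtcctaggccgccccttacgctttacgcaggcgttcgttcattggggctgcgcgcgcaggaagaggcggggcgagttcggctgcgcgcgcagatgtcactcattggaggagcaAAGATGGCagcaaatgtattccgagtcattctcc

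The Mrps18b window held all 3 cores, with the NRF1 core beginning 19 bases and the GABP core 3 bases before the start and the YY1 core 28 bases after it. In the Mrps18a window the GABP core began 38 bases before the start and the YY1 core at the start itself. Mrpl48 had its YY1 core 177 and its GABP core 76 bases upstream, and Mrpl49 had a YY1 core 16 bases past the start. Over the 54 member windows, the GABP core was found in 18 (33.3%) against 13.0% of all windows, the NRF1 core in 6 (11.1%) against 2.69%, and the YY1 core in 14 (25.9%) against 4.27%. The core ACGTG of hypoxia-inducible factor (HIF) was found in 14 (25.9%), against 22.3% of all windows. Such matches describe letters and not binding. Median GC content was 56.2% in member windows and 58.0% in all, while the median number of CG dinucleotides, which the GABP and NRF1 cores contain, was 18.5 in member windows and 16 in all. Of the 22 members with a window that were called on day 6, 9 held the GABP core, 3 the NRF1 core, 6 the YY1 core and 6 the HIF core. Of all 54 members with a window, called or not, 18, 6, 14 and 14 held these cores in that order. Whether a core goes with a call was not tested. Among the windows printed, those of Mrps18b and Mrpl49 hold the HIF core, left in lower case, 82 and 83 bases before the start (1 on each strand) in Mrps18b and 177 and 152 bases before it in Mrpl49. The windows of Mrpl18, Mrps25, Mrpl41 and Mrps33, also called on day 6, held none of the GABP, NRF1 and YY1 cores.

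On day 6, 27 of the 67 mitochondrial ribosomal protein genes rose in hyperoxia against room air over both strains (40.3%), 17 large and 10 small subunit genes, against 4.01% of all genes, and 0 members fell (2 lower at an unadjusted p under 0.05). The median change of the members was 0.29 on the log2 scale, against −0.01 for all genes. The contrast holds only day 6 groups, so leaving out a day 5 array cannot move this median of the members. Folds of the 27 lay between 1.25 (Mrpl3) and 1.85 (Mrps34). The change was above 0 for 63 members, and 40 did not pass. Without replicate 2 of F344 hyperoxia day 6, the array that stood apart, 17 of the 27 were still called. Without replicate 1 of SD hyperoxia day 6 only Mrpl49 was still called, with 0.37% of all genes called either way in that fit, and without replicate 1 or 2 of F344 room air day 6 the counts were 9 and 7 with 1.52% and 1.34% of all genes called. Without any 1 of the other 13 arrays 17 to 29 members were called (at most 1 of them lower), and the members' median stayed between 0.25 and 0.34 in these 16 fits.

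**Figure D1:**
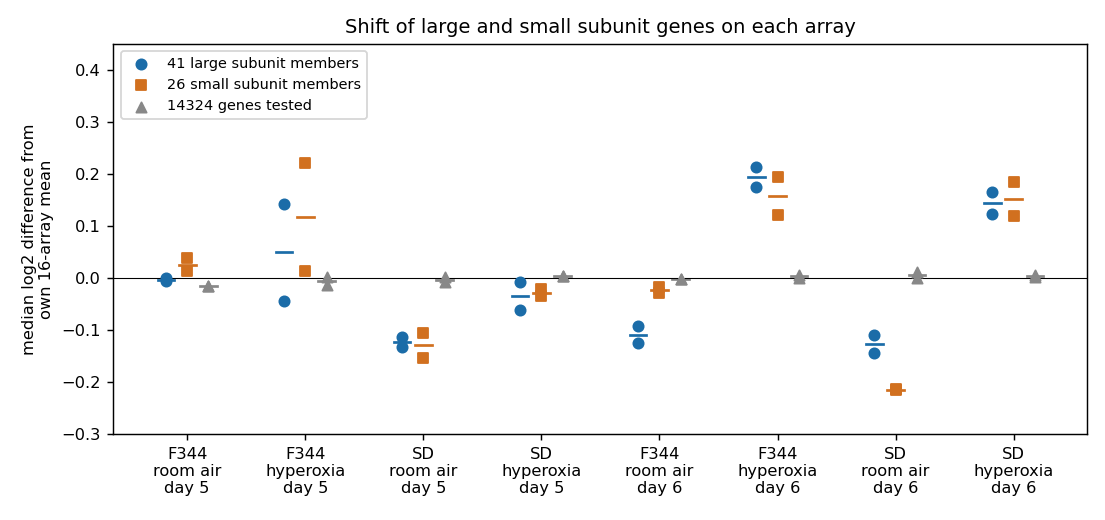
Median log2 difference from each gene's own mean over the 16 arrays (vertical axis), for large subunit members (circles), small subunit members (squares) and all genes tested (triangles), in each of the 8 groups (horizontal axis); a point is 1 array and a bar the mean of 2. On day 6 the hyperoxia arrays lie between 0.12 and 0.21 and the room air arrays between −0.22 and −0.02 for both subunits, while all genes stay near 0.

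The shift of a subunit on an array, taken as the median difference of its members from their own means over the 16 arrays, shows the same on single arrays. For the large subunit, the day 6 arrays stood at 0.21 and 0.17 in F344 hyperoxia and at −0.13 and −0.09 in F344 room air. SD arrays stood at 0.17 and 0.12 in hyperoxia and at −0.11 and −0.14 in room air. Hyperoxia and room air arrays did not overlap in either strain. The small subunit stood at 0.20 and 0.12 in F344 hyperoxia and at −0.02 and −0.03 in F344 room air. In SD its arrays were at 0.18 and 0.12 in hyperoxia and at −0.21 and −0.22 in room air. Again the groups did not overlap. Hyperoxia minus room air was thus 0.30 (F344) and 0.27 (SD) for the large subunit and 0.18 and 0.37 for the small one. No test was made of a summed level over members. Rescaling the arrays to 1 median over the genes tested, which adds 0.10 to every F344 day 6 change, gave 0.40 and 0.28 for the large and small subunit in F344.

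In room air on day 6, the order of the subunits' shifts was opposite in the strains. The small subunit's shift was 0.09 below that of the large in SD (difference 0.09 ± 0.02 SD, n = 2) and 0.09 above it in F344 (−0.09 ± 0.03). In the hyperoxia groups of that day the differences were 0.04 ± 0.02 in F344 and −0.01 ± 0.02 in SD. Over both strains the medians of the day 6 effect were 0.29 for each subunit, and 17 of 41 (41.5%) and 10 of 26 (38.5%) were called. By evolutionary class, called members numbered 11 of 24 large with a bacterial counterpart, 6 of 17 large found only in mitochondria, 5 of 17 small with a counterpart and 5 of 9 small found only in mitochondria. The medians of the classes were 0.32, 0.18, 0.27 and 0.35 in that order. Called members thus occurred in each class. No test of a difference between the classes was made.

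**Figure D2:**
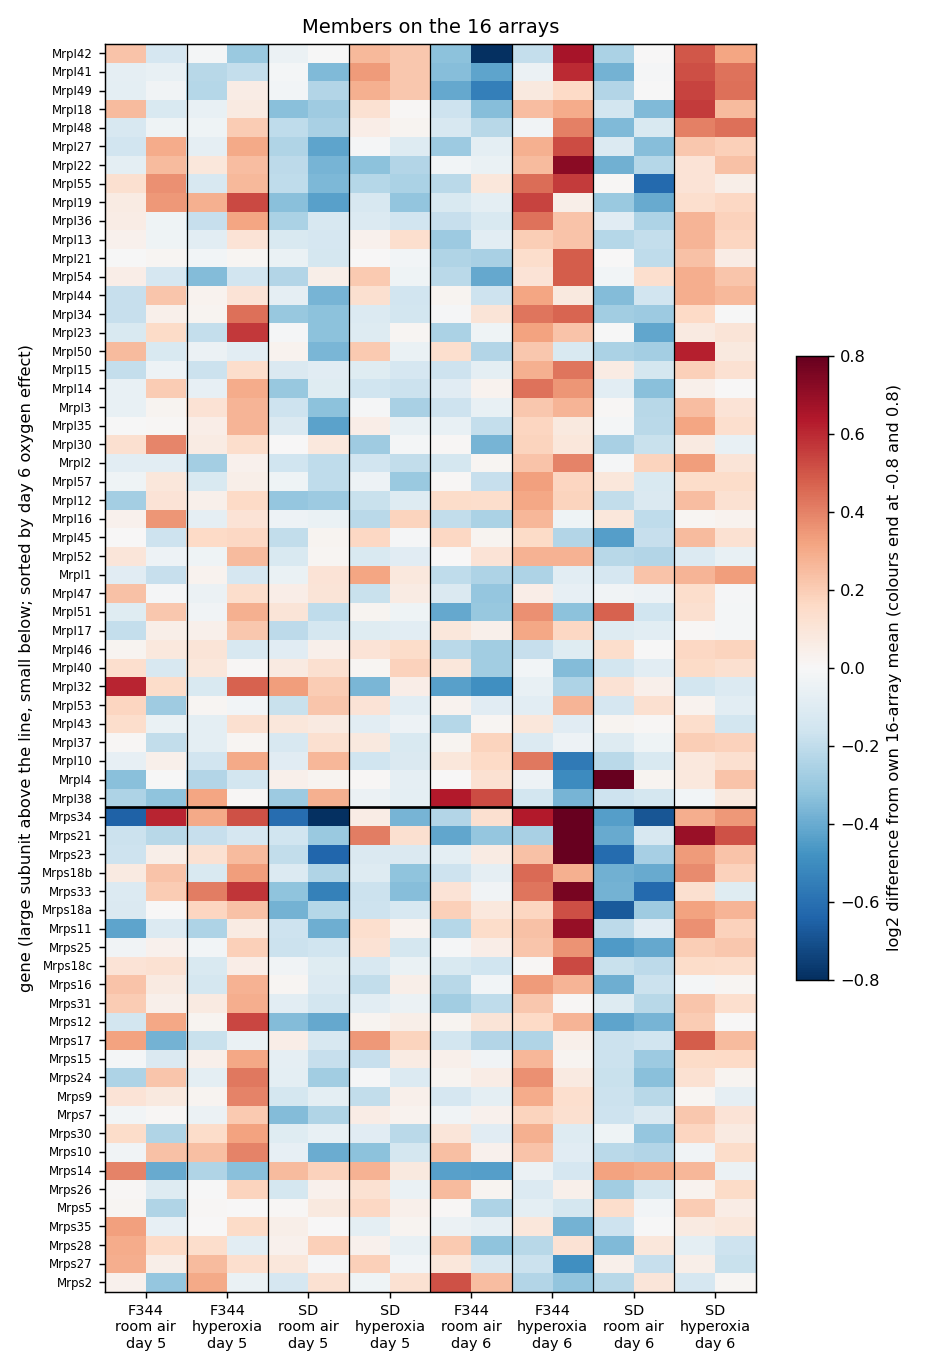
Each of the 67 members (rows, sorted within each subunit by the day 6 change over both strains) on the 16 arrays (columns, 2 per group); colour is the log2 difference from the gene's own mean over the arrays. Most rows are red in the hyperoxia columns and blue in the room air columns of day 6, and Mrpl38 and Mrps2 at the foot of the 2 blocks are not.

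Mrpl49, a large subunit protein found only in mitochondria, was the 1 member that kept its day 6 call over both strains whichever array was omitted. Its day 6 values were 7.44 and 7.52 in F344 hyperoxia, 6.96 and 6.82 in F344 room air, 7.90 and 7.80 in SD hyperoxia and 7.13 and 7.36 in SD room air. All hyperoxia arrays of the day lay above all room air arrays, across the strains. The change over both strains was 0.60 ± 0.09 (1.52-fold, adjusted p = 0.00325), and the highest adjusted p without 1 array was 0.033. It was also called in F344 alone (0.59, adjusted p = 0.0407) and in SD alone (0.61, adjusted p = 0.0219), the only member called in both. These calls within 1 strain did not hold in every fit with an array left out. Without replicate 2 of F344 hyperoxia day 6 the F344 change of Mrpl49 was 0.56 and its F344 call ended.

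Mrpl18, the counterpart of a bacterial protein that binds a small RNA of the large subunit, came next by p. It measured 8.82 and 8.88 in F344 hyperoxia, 8.41 and 8.23 in F344 room air, 9.14 and 8.83 in SD hyperoxia and 8.43 and 8.23 in SD room air. Here too the 4 hyperoxia arrays of day 6 lay above the 4 room air arrays. Its change was 0.59 ± 0.10 (1.51-fold, adjusted p = 0.0065). Mrpl41, another large subunit protein found only in mitochondria, read 8.31 and 8.95 in F344 hyperoxia against 8.01 and 7.93 in room air, and 8.87 and 8.79 in SD hyperoxia against 7.97 and 8.35. Mrpl41 rose by 0.66 ± 0.13 (adjusted p = 0.0102). Mrpl42 had 9.57 and 10.42 in F344 hyperoxia against 9.44 and 8.86, and 10.26 and 10.08 in SD hyperoxia against 9.51 and 9.77, a change of 0.69 ± 0.16 (adjusted p = 0.0221). In both, replicate 2 of F344 hyperoxia was well above replicate 1. Without it, the change over both strains was 0.50 ± 0.11 for Mrpl41 (adjusted p = 0.0242) and 0.48 ± 0.14 for Mrpl42, which no longer passed (adjusted p = 0.069), and the F344 changes went from 0.66 to 0.33 and from 0.85 to 0.43. The second probe set of Mrpl42, in a fit of every probe set on its own, had a change over both strains of 0.42 ± 0.16 that did not pass (adjusted p = 0.134), and with the mean of its sets Mrpl42 changed by 0.56 (adjusted p = 0.0408). Mrpl41 and Mrpl42, like Mrps21, have a gene in RefSeq named as a copy of them (3 in all), so their probes may share targets, and 24 called members remain without these.

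Bacteria have 1 ribosomal protein S18, and mammalian mitochondria have 3 proteins named after it, Mrps18a, Mrps18b and Mrps18c. All 3 rose on day 6. Mrps18b read 7.87 and 7.71 in F344 hyperoxia against 7.26 and 7.35 in room air, and 7.80 and 7.60 in SD hyperoxia against 7.04 and 7.02, a change of 0.58 ± 0.10 (adjusted p = 0.00825). Neither strain's groups overlapped. Mrps18a read 8.17 and 8.51 against 8.19 and 8.08 in F344, where the groups overlapped, and 8.32 and 8.27 against 7.32 and 7.71 in SD, where they did not. Its change was 0.49 ± 0.10 (adjusted p = 0.0125), 0.21 in F344 and 0.78 in SD, and the difference between the strains did not pass (0.57 ± 0.20, adjusted p = 0.258). Without replicate 2 of F344 hyperoxia day 6 the F344 change of Mrps18a was 0.04, and that over both strains 0.41 (adjusted p = 0.0381). Mrps18c rose by 0.38 ± 0.10 (adjusted p = 0.034), and without that array had 0.25 ± 0.08 and did not pass (adjusted p = 0.0937). Structures of the mammalian ribosome place Mrps18a in the large subunit despite its name, as they do Mrps30, and the subunits are split here by name.

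The other small subunit genes that rose include those with the largest changes. Mrps34, found only in mitochondria and needed for a stable small subunit, read 7.36 and 7.75 in F344 hyperoxia against 6.49 and 6.85 in room air, and 7.02 and 7.07 in SD hyperoxia against 6.28 and 6.04. Groups were apart in both strains. It changed by 0.88 ± 0.20 (1.85-fold, adjusted p = 0.02), and by 0.79 ± 0.22 without replicate 2 of F344 hyperoxia day 6, where it did not pass (adjusted p = 0.0684). Mrps21 read 8.43 and 9.63 against 8.27 and 8.38 in F344, and 9.38 and 9.20 against 8.28 and 8.56 in SD, a change of 0.78 ± 0.18 (adjusted p = 0.0189). Mrps23 read 7.91 and 8.58 against 7.60 and 7.75 in F344, and 8.02 and 7.91 against 7.06 and 7.41 in SD, a change of 0.65 ± 0.14 (adjusted p = 0.0142). F344 replicate 2 was again the higher hyperoxia array for each of these. Without it Mrps21 changed by 0.48 ± 0.10 over both strains (adjusted p = 0.0236) and by 0.10 in place of 0.70 in F344, so that its large F344 value rests on 1 array. Mrps23 then changed by 0.48 ± 0.12 (adjusted p = 0.0417), and by 0.24 in place of 0.57 in F344. Mrps25, of the same class as Mrps34, read 7.75 and 7.89 against 7.52 and 7.58 in F344, and 7.72 and 7.74 against 7.07 and 7.12 in SD. Mrps25 changed by 0.45 ± 0.08 (adjusted p = 0.00878).

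The remaining called members rose by 0.32 to 0.53. Of these Mrpl55, at 0.47, had 0.32 without replicate 2 of SD room air day 6 (adjusted p = 0.112), and Mrpl27, Mrpl34, Mrpl15, Mrpl54, Mrpl55, Mrpl3 and Mrps11 did not pass without replicate 2 of F344 hyperoxia day 6. Among large subunit genes they were Mrpl13, Mrpl48, Mrpl22, Mrpl21, Mrpl27, Mrpl36, Mrpl19, Mrpl34, Mrpl15, Mrpl54, Mrpl55, Mrpl44 and Mrpl3. Mrpl22 and Mrpl4 belong to the proteins that line the tunnel through which the new chain leaves the ribosome, and of these Mrpl22 rose (0.50 ± 0.11, adjusted p = 0.015) while Mrpl4 had a change of −0.30 ± 0.14 (adjusted p = 0.221). With replicate 2 of F344 hyperoxia day 6 left out, the change of Mrpl4 was −0.18. Among small subunit genes the rest were Mrps33, Mrps31 and Mrps11. The proteins found only in mitochondria and the conserved ones both appear in this group.

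**Figure D3:**
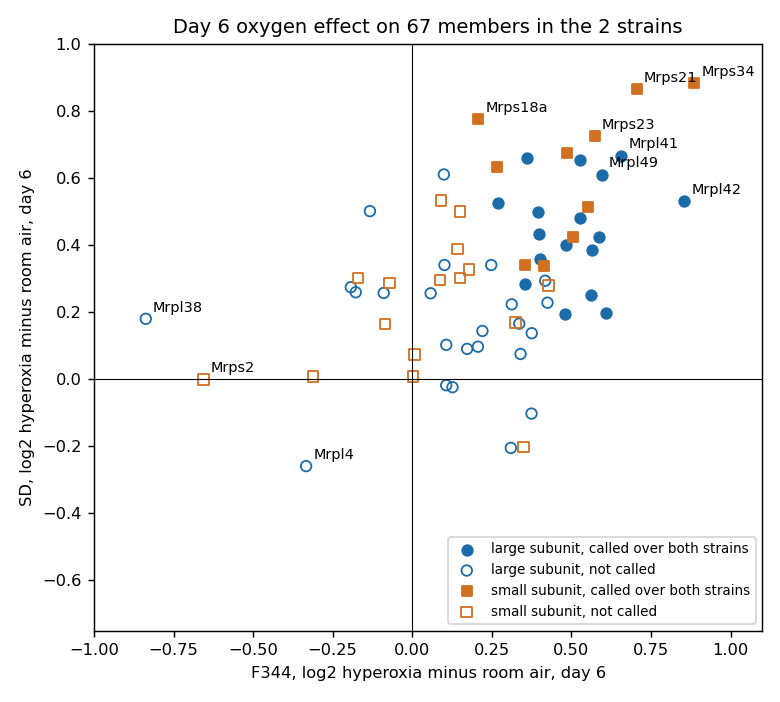
Log2 hyperoxia minus room air on day 6 in F344 (horizontal axis) and SD (vertical axis) for the 67 members; filled symbols were called over both strains, circles are large and squares small subunit genes. Of the members, 51 lie above 0 in both strains and 1, Mrpl4, below 0 in both, and Mrpl38 is the farthest to the left at −0.84 in F344 and 0.18 in SD.

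The directions in each strain were also counted array by array. In F344 both hyperoxia arrays were above both room air arrays for 45 members (20.7% of all genes) and below for 5 (22.0% of all genes). In SD the counts were 55 above (25.3% of all genes) and 2 below (24.7% of all genes). For 41 members the hyperoxia arrays were above in both strains, against 8.49% of all genes. Of the 27 called members 26 were among these, which is no separate support, because the calls were made on the same arrays. Members above 0 in both strains numbered 51, against 29.0% of all genes.

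Within 1 strain fewer members passed. In F344, 2 were called higher (0.342% of all genes), Mrpl49 and Mrpl21 (0.56 ± 0.12, adjusted p = 0.044), and 1 was called lower (0.845% of all genes), Mrpl38. Without replicate 2 of F344 hyperoxia day 6 the F344 change of Mrpl21 was 0.39 and its F344 call ended. In SD, 6 were called higher (2.23% of all genes) and 0 lower (0 lower at an unadjusted p under 0.05): Mrps18a, Mrps25, Mrpl49, Mrpl48, Mrps18b and Mrpl18. The F344 count was 17 without replicate 1 of F344 hyperoxia day 6, which leaves the array that stood apart, with 11.3% of all genes called in that fit against 1.19% in the fit on all arrays. It was 0 without replicate 2 of that group, either array of F344 room air day 6 or either array of SD hyperoxia day 5. It was 1 without either array of SD hyperoxia day 6. With arrays rescaled to 1 median or quantile-normalized, 5 and 6 members were higher and 1 lower in F344. The SD count was 15 without either array of F344 hyperoxia day 6, with 6.94% of all genes called against 2.79%, and 0 without either array of SD hyperoxia day 6 or replicate 1 of SD room air day 6. The medians of the members were alike, 0.31 in F344 and 0.30 in SD. The oxygen effect on day 6 differed between strains for 0 members (0.0559% of all genes; 7 higher in SD at an unadjusted p under 0.05), with the lowest p for Mrpl38, Mrpl45 (0.63 ± 0.20, adjusted p = 0.219) and Mrps18a. Without replicate 1 of F344 hyperoxia day 6 Mrpl38 passed (adjusted p = 0.0433).

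Mrpl38, a large subunit protein found only in mitochondria, was the 1 member called lower with hyperoxia in F344 on day 6. There 11 of the 67 members were below 0, and for 5 of them, Mrpl38, Mrps2, Mrpl4 (−0.33), Mrps27 (−0.31) and Mrpl37 (−0.18), both hyperoxia arrays lay below both room air arrays. With replicate 2 of F344 hyperoxia day 6 left out, the F344 changes of Mrpl4 and Mrps27 were −0.10 and −0.15. On day 6 Mrpl38 read 6.64 and 6.41 in F344 hyperoxia against 7.42 and 7.30 in room air, a fall of 1.79-fold (−0.84 ± 0.16, adjusted p = 0.0286). Without replicate 2 of F344 hyperoxia day 6 it had −0.72 ± 0.19 and did not pass (adjusted p = 0.13). On day 5 it read 7.10 and 6.79 in F344 hyperoxia against 6.54 and 6.46 in room air (0.45 ± 0.16, adjusted p = 0.447). The room air pools of day 6 were thus the highest of the F344 groups, and the groups did not overlap on either day. In SD it read 6.74 and 6.70 against 6.49 and 7.07 on day 5, and 6.76 and 6.86 against 6.62 and 6.64 on day 6. The difference of the F344 effect between days was −1.28 ± 0.23 (adjusted p = 0.0213; 0.747% of all genes were called lower), and that between strains on day 6 was 1.02 ± 0.23 (adjusted p = 0.0945). The day difference lost its call without replicate 1 of F344 hyperoxia day 5, replicate 1 of F344 room air day 5 or either array of F344 room air day 6 (adjusted p 0.0604 to 0.116).

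Mrps2, a conserved small subunit protein, had a like pattern without passing. It read 6.65 and 6.57 in F344 hyperoxia against 7.39 and 7.13 in room air on day 6 (−0.66 ± 0.16, adjusted p = 0.0569), and 6.75 and 6.90 against 6.66 and 6.98 in SD. The F344 groups did not overlap and the SD groups did. Least variable over the 8 groups was Mrpl53, whose group means had an SD of 0.05, followed by Mrpl43 (0.06) and Mrps35 (0.09). Most variable were Mrps34 (0.52), Mrps33 (0.40) and Mrps21 (0.35).

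**Figure D4:**
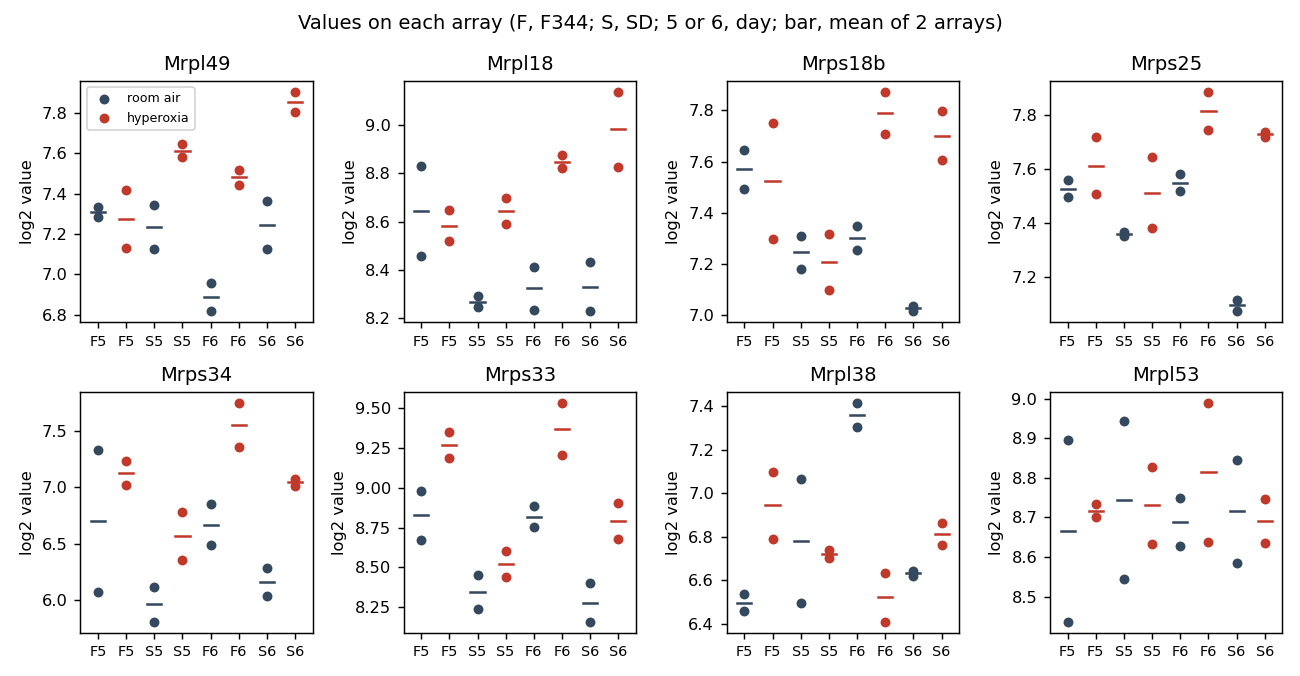
Log2 values of 8 members (panels) on the 16 arrays; points are arrays, bars the mean of 2, blue is room air and red hyperoxia, and the vertical axes differ between panels. In the top row and for Mrps34, the red points of day 6 lie above the blue points of the same strain, Mrpl38 falls from 7.42 and 7.30 to 6.64 and 6.41 in F344, and Mrpl53 shows no such separation.

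On day 5 the members' changes were small. Their median was 0.06 in F344 and 0.07 in SD. None was called by limma in F344 (0.126% of all genes; 3 higher and 0 lower at an unadjusted p under 0.05), in SD (0.0628% of all genes; 5 higher and 1 lower) or over both strains (0.209% of all genes; 8 higher and 1 lower). Over both strains the lowest p were those of Mrps33 (0.31 ± 0.11, adjusted p = 0.313), Mrps7 (0.21 ± 0.08, adjusted p = 0.338) and Mrps12 (0.30 ± 0.11, adjusted p = 0.352). Without replicate 2 of F344 room air day 5, 1 member was called higher. In F344 alone Mrps33 (0.44), Mrpl38 (0.45) and Mrpl34 (0.30) had the lowest p, and in SD alone Mrps7 (0.34), Mrpl49 (0.38) and Mrpl18 (0.38). Hyperoxia arrays were above room air arrays for 10 members in F344 (20.5% of all genes) and 23 in SD (24.6% of all genes), and below for 4 (20.3%) and 6 (21.5%). Members above 0 in both strains numbered 34, against 29.3% of all genes. The effect differed between strains on day 5 for 0 members (0.0% of all genes; 3 higher and 1 lower in SD at an unadjusted p under 0.05), with the lowest p for Mrpl41 (0.60 ± 0.25, adjusted p = 0.807).

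Array shifts on day 5 were −0.04 and 0.14 in F344 hyperoxia and −0.0057 and −0.0008 in room air for the large subunit. For the small subunit they were 0.01 and 0.22 against 0.01 and 0.04. The differences, 0.05 and 0.09, rest on replicate 2 of F344 hyperoxia and were −0.033 and −0.003 without it. In SD the large subunit stood at −0.01 and −0.06 in hyperoxia and −0.11 and −0.13 in room air, and the small at −0.02 and −0.03 against −0.11 and −0.15. The SD groups did not overlap, although no member passed.

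Whether the effect was larger on day 6 than on day 5 was tested gene by gene. In F344 it rose from day 5 to day 6 for 0 members (0.272% of all genes; 18 members higher at an unadjusted p under 0.05) and fell for Mrpl38 (0.747% of all genes). Without replicate 1 of F344 hyperoxia day 6, 6 members were called higher and 1 lower, with 3.45% of all genes called either way. In SD it differed for 0 members (0.112% of all genes; 4 higher and 0 lower at an unadjusted p under 0.05), with the lowest p for Mrps18b (0.71 ± 0.20, adjusted p = 0.83). The median day difference was 0.20 in F344 and 0.22 in SD, above 0 for 47 and 59 members. With all 16 arrays, a larger effect on day 6 was therefore not shown for any 1 member.

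In room air, several members were lower in SD than in F344. Over both days 6 fell in SD relative to F344 (5.33% of all genes), Mrps33, Mrps12, Mrps18a, Mrpl19, Mrps10 and Mrps25, and 1 was higher (4.02% of all genes), Mrps14, while quantile-normalized arrays gave 3 lower and 1 higher. Among the 6 lower ones, 5 carry small subunit names. The members' median was −0.11, against 0.01 for all genes. Mrps33, a small protein found only in mitochondria, read 8.67 and 8.98 on day 5 and 8.89 and 8.75 on day 6 in F344 room air, and 8.45 and 8.24 on day 5 and 8.40 and 8.16 on day 6 in SD room air. All 4 SD arrays lay below all 4 F344 arrays, and the difference was −0.51 ± 0.11 (adjusted p = 0.00831), and it kept its call whichever of the 16 arrays was omitted. Mrps12, which sits where the messenger is decoded, differed by −0.46 ± 0.11 (adjusted p = 0.0205), and Mrps14 by 0.49 ± 0.13 (adjusted p = 0.0319). The count of called members fell from 7 to 1 without replicate 2 of F344 room air day 5 or replicate 1 of F344 room air day 6, and to 2 without replicate 2 of F344 room air day 6. It was 3 without replicate 2 of SD room air day 5 or replicate 1 of SD room air day 6, 4 without replicate 2 of SD room air day 6, and 11 without replicate 1 of F344 room air day 5. Of all genes, 9.35% were called with all arrays and 4.29% to 10.7% in these fits.

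Under hyperoxia 5 members were lower in SD (3.78% of all genes), Mrps33, Mrpl19, Mrpl22, Mrpl34 and Mrpl52, and 3 higher (5.18% of all genes), Mrpl49, Mrpl1 and Mrps17. Mrps33 read 9.19 and 9.35 on day 5 and 9.21 and 9.54 on day 6 in F344 hyperoxia, against 8.60 and 8.44 and then 8.90 and 8.68 in SD. Again the strains did not overlap, and the difference was −0.66 ± 0.11 (adjusted p = 0.00162, kept in all 16 such fits). Mrps33 also rose with hyperoxia on day 6 over both strains (0.53 ± 0.11, adjusted p = 0.0125). Mrpl49 was 0.35 ± 0.09 higher in SD (adjusted p = 0.0239), with the 4 SD hyperoxia arrays between 7.58 and 7.90 and the F344 ones between 7.13 and 7.52. The shares of the members, 7.46% lower and 4.48% higher here and 8.96% lower in room air (5.33% of all genes), rest on few genes. They were not tested against the shares of all genes and are not taken to mark anything particular to the members. Rescaled to 1 median the split was 3 higher and 3 lower, and quantile-normalized it was 2 and 6. The count of 8 fell to 1 without replicate 1 of SD hyperoxia day 5 or replicate 1 of SD hyperoxia day 6, to 2 without replicate 2 of F344 hyperoxia day 5, SD hyperoxia day 5 or SD hyperoxia day 6, and to 4 without either array of F344 room air day 6, with 3.32% to 7.36% of all genes called in these fits against 8.96% with all arrays.

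From day 5 to day 6 few members changed in either air. In room air Mrpl32, a large subunit protein that is cut by a protease of the inner membrane before it is built in, fell (1.71% of all genes fell). It read 7.13 and 6.67 on day 5 and 6.09 and 6.04 on day 6 in F344, and 6.86 and 6.73 and then 6.64 and 6.57 in SD. The fall was thus mainly seen in F344, at −0.51 ± 0.13 over both strains (adjusted p = 0.0478), and it passed in 5 of 16 fits with an array left out. With the replicate number as a block it did not pass. Under hyperoxia 3 members rose from day 5 to day 6 (2.1% of all genes), Mrpl2, which lies near the site of peptide bond formation (0.42 ± 0.09, adjusted p = 0.0137), Mrps18b (0.38 ± 0.10, adjusted p = 0.0445) and Mrpl15 (0.32 ± 0.09, adjusted p = 0.0485). Mrpl2 read 6.15 and 6.45 on day 5 and 6.65 and 6.82 on day 6 in F344, and 6.27 and 6.22 and then 6.76 and 6.53 in SD. No array of day 5 reached those of day 6 in the same strain. In place of 3, 14 members were called without replicate 1 of F344 hyperoxia day 6, with 12.5% of all genes called in that fit against 4.8% with all arrays. The count was 0 without replicate 1 of F344 hyperoxia day 5, replicate 2 of SD hyperoxia day 5 or replicate 1 of SD hyperoxia day 6, and 1 without replicate 1 of SD hyperoxia day 5, replicate 2 of SD hyperoxia day 6, either array of SD room air day 5 or either array of F344 room air day 6.

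Of 6 listed proteins of the mitochondrial ribosome that carry other names, 5 were measured, and 3 of these rose on day 6 over both strains, where 4.01% of all genes did. They were Chchd1 (0.61 ± 0.12, adjusted p = 0.0126), Aurkaip1 (0.53 ± 0.10, adjusted p = 0.0107) and Gadd45gip1 (0.45 ± 0.10, adjusted p = 0.0151). Dap3, a small subunit protein that binds GTP, had 0.31 ± 0.10 (adjusted p = 0.0653) and Ptcd3, a small subunit protein with RNA-binding repeats, −0.23 ± 0.10 (adjusted p = 0.197).

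The machinery that works with the ribosome was counted in the same contrast, in which 4.01% of all genes rose and 2.73% fell. No test between these short lists and the members was made. Of 9 measured translation factors of mitochondria 0 were called on day 6 over both strains, with a median of 0.05, where Taco1, which activates translation of a respiratory chain messenger, had the lowest p (0.26 ± 0.09, adjusted p = 0.078) and the elongation factor Tufm had 0.05 ± 0.09 (adjusted p = 0.803). Of 22 ribosome assembly and ribosomal RNA modification genes 1 rose, Malsu1, which holds the large subunit apart until it is complete (0.34 ± 0.09, adjusted p = 0.0343), and the list's median was 0.06. Of 11 mitochondrial tRNA synthetases 0 were called, with a median of −0.07, and Vars2, for valine, had the lowest p (−0.25 ± 0.11, adjusted p = 0.178). Of 15 genes of mitochondrial DNA upkeep and RNA production 3 rose. They were Slirp, which protects mitochondrial messengers (0.79 ± 0.11, adjusted p = 0.00325), Hsd17b10, a part of the enzyme that trims mitochondrial transfer RNA (0.57 ± 0.10, adjusted p = 0.00878), and Polg2, the accessory subunit of the DNA polymerase (0.33 ± 0.09, adjusted p = 0.0456). The partner of Slirp, Lrpprc, had −0.08 ± 0.10 (adjusted p = 0.683). Of 8 regulators of nuclear genes for mitochondria 0 were called, the nuclear receptor Esrra having the lowest p (0.32 ± 0.11, adjusted p = 0.0907). Among the others, Gabpa had −0.12 ± 0.09 (adjusted p = 0.462), Nrf1 0.12 ± 0.07 (adjusted p = 0.356), Yy1 0.11 ± 0.09 (adjusted p = 0.515) and the coactivator Ppargc1a −0.10 ± 0.11 (adjusted p = 0.626).

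**Figure D5:**
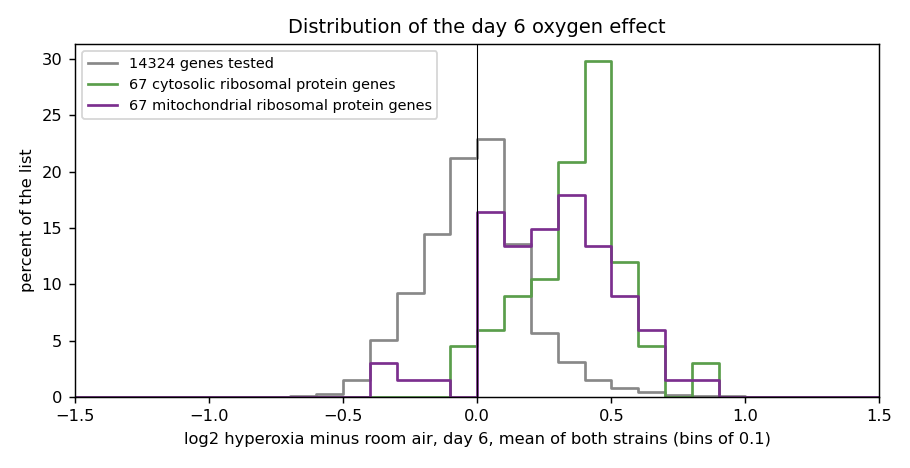
Share of each list (vertical axis, percent) by log2 hyperoxia minus room air on day 6 as the mean of both strains (horizontal axis, bins of 0.1), for all genes tested, 67 cytosolic and 67 mitochondrial ribosomal protein genes. All genes centre on −0.01, the mitochondrial genes have a median of 0.29 and the cytosolic genes 0.39.

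Cytosolic ribosomal protein genes were shifted in the same contrast, so the shift was not seen in mitochondrial ribosomes alone. Of 67 measured, 36 rose on day 6 over both strains (4.01% of all genes) and 0 fell (2.73% of all genes), with a median of 0.39 against 0.29 for the mitochondrial set. In SD 18 cytosolic and 6 mitochondrial genes rose (2.23% of all genes), and in F344 1 and 2 (0.342% of all genes). No test of the difference between the lists was made. In room air 23 of the cytosolic genes were lower in SD than in F344 (5.33% of all genes), with a median of −0.26 against −0.11 for the members.

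Markers of cell types were read in the same contrast. Of 6 measured genes of cycling cells 0 were called on day 6 over both strains, with a median of −0.26, while Cdk1 had 0.54 ± 0.19 (adjusted p = 0.0941). Their array medians, taken as for the subunits, lay between −0.61 and −0.56 in F344 hyperoxia against −0.39 and −0.27 in room air on day 6, and between −0.90 and −0.72 against −0.89 and −0.33 in SD. From day 5 to day 6 all 6 fell, in room air with a median of −0.99 and in hyperoxia with −1.42. Among 4 microglia markers, C1qa (0.53 ± 0.12, adjusted p = 0.017) and Aif1 (0.29 ± 0.08, adjusted p = 0.0373) rose on day 6 and Csf1r (−0.19) and Cx3cr1 (−0.20) did not pass. The rod factor Nrl rose too (0.32 ± 0.08, adjusted p = 0.034), and no other of the 10 retinal markers was called. The part of cell make-up in the members' changes was not tested.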

How the data were processed

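Single-colour arrays of pooled retinal RNA from 16 rat samples were used. The authors deposited log2 expression values of 27342 probe sets, made with Partek 6.4 and RMA per the submitters' processing notes. RMA removes background, quantile-normalizes arrays and summarises probes, so a change shared by most transcripts would not be seen. Build and probe filters are not given in the sources used here. Scanner files were not used here. Precision is limited by there being 2 arrays per group.

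Gene names came from the platform annotation (15097 probe sets with 1 symbol, 323 with several, 11922 not listed), and 15067 of those with 1 symbol were matched by gene identifier to RefSeq (GRCr8). The set with the highest mean was taken per gene. In limma 3.58.1 (R 4.3.3), each group got 1 mean in a fit over the 16 arrays (8 residual and 7.41 prior degrees of freedom), with Benjamini-Hochberg adjustment over 14324 genes in each of 14 contrasts. Scripts were tested on simulated data. Named in each contrast were the called members (the 8 largest each way), the 3 with the smallest p, the 3 most and least variable, and of other lists the called genes or that with the smallest p. Further names are examples chosen after their values were seen. The members and lists were chosen with earlier results of these data known. Promoter windows were taken from RefSeq, and 13 members have none there. Alternatives were array weights, a robust prior, other scaling, other probe set rules, fewer groups, a replicate block and leaving out each array.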

Additional observations from a re-analysis of the deposited data

Results flagged for a closer look

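For Mrpl38 the oxygen effect in F344 differed between the days, with day 6 minus day 5 at −1.28 ± 0.23 on the log2 scale (limma, n = 2 arrays per group, adjusted p = 0.0213). Hyperoxia minus room air was 0.45 on day 5 and −0.84 on day 6. The groups did not overlap on either day, with hyperoxia above on day 5 and below on day 6. In SD the day difference of the effect was not called for any member. The F344 difference was called in 12 of 16 fits with an array left out, and its cause was not tested.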

How the results depend on the processing

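For the 59 results of named members, 0 of 1534 values under an alternative turned direction, 242 lost their call and 4 gained one. Many of the alternatives cannot change a direction, because they alter only the error or leave out arrays of other groups. The count of 0 is therefore no measure of how stable the directions are. Counts of called members moved as follows. The day 6 count over both strains (27) was 15 with only the 4 groups of the contrast, and 1 to 29 without 1 array. The F344 day 6 count (3) was 0 with only its groups and with array weights, 1 with a robust trended prior and with every probe set on its own, 6 with centred arrays, 7 with quantile normalization, and 0 to 17 without 1 array. The SD day 6 count (6) was 15 with array weights and 0 to 15 without 1 array. The F344 day difference of the effect (1) was 0 with only its groups and with array weights, and 0 to 7 without 1 array. Without 1 array the day 5 count over both strains was 0 to 1, the strain difference of the day 6 effect 0 to 1, the strain difference in room air 1 to 11 (4 with quantile normalization), and that in hyperoxia 1 to 11. The room air day difference (1) was 0 with a robust prior, with every probe set on its own and with the replicate block, and 0 to 2 without 1 array. The hyperoxia day difference (3) was 1 with only its groups, a robust prior or every probe set, 5 with centred or quantile-normalized arrays and 0 to 14 without 1 array.

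The large subunit shift in F344 on day 6 (0.30) was 0.27 as a mean over members and 0.40 with centred arrays, and the small one (0.18) was 0.28 with centred arrays and 0.13 to 0.22 without 1 array. The small SD day 5 shift (0.10) was 0.13 with subunits assigned by structure, 0.13 as a mean, 0.13 with centred arrays and 0.085 to 0.13 without 1 array. The F344 day 5 shifts were −0.033 to 0.14 (large) and −0.003 to 0.20 (small) without 1 array, turning sign without replicate 2 of F344 hyperoxia day 5. Members lying wholly below room air numbered 2 (centred) or 3 (quantile) in place of 6 in SD on day 5, 3 (either) in place of 5 in F344 on day 6 and 1 (quantile) in place of 2 in SD on day 6. Where a group was left with 1 array, that array was assumed to vary like the other groups. Causes of these moves were not tested, beyond fewer samples or groups in the fit.

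Samples with the same replicate number did not deviate together in most of 28 pairs of groups (r between −0.287 and 0.519, over 0.1 in 8). Whether arrays of some groups with 1 replicate number share a source was not tested. With the replicate block the counts were 28 on day 6 over both strains, 2 in F344 and 7 in SD.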

Other observations

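The gene whose level followed that of Mrps34 most closely over the 8 group means was Psma5, a proteasome subunit, with Smim26, Rbx1 (a ubiquitin ligase subunit), Acot12 and Mrps23 next (Pearson's r 0.988, 0.988, 0.988, 0.985 and 0.983, as a description over 8 means that share arrays). Acot12 averaged 4.10 to 4.34 over the groups, below the array medians.

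The second probe sets of 4 members gave a check within genes. For Mrpl41 both sets changed on day 6 alike (0.66 and 0.65 in F344, 0.67 and 0.75 in SD), and for Mrpl40 both were near 0 in F344 (−0.09 and −0.04). For Mrpl42 they opposed each other in F344 on day 5 (−0.20 and 0.20) and both were above 0 on day 6, in F344 (0.85 and 0.58) and in SD (0.53 and 0.26). For Mrps11 the SD day 6 change was 0.42 by one set and 0.10 by the other, and over both strains the other set had 0.27 ± 0.11 (limma, every probe set on its own, adjusted p = 0.174).

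Members often stand head to head with another gene. A start on the opposite strand lay within 1000 bases upstream for 18 of 54 members (33.3%), against 12.2% of 11806 genes. Mrpl46 and Mrps11 start 234 bases apart, and on day 6 over both strains Mrps11 rose by 0.46 while Mrpl46 had 0.10 (limma, adjusted p = 0.0367 and 0.45). Mrpl49 starts 186 bases from Fau, whose product holds a cytosolic ribosomal protein, and Fau rose by 0.51 (adjusted p = 0.0104). In all, 14 of the 18 partners were tested, of which 8 were above 0. Of these 14, 4 were called higher, as were 4.01% of all genes, and 1 lower, as were 391 of 14324 genes. The 4 were Fau, Psma2 beside Mrpl32, Ndufb5 beside Mrpl47, and Mrps11, which is itself a member. Mrpl32 (0.05) and Mrpl47 (0.15) were not called. The lower one was Hira beside Mrpl40 (−0.39, adjusted p = 0.0138), and Ppp1r10 beside Mrps18b had −0.28 (adjusted p = 0.0827). The part of shared promoters was not tested.

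Members are mostly short genes. With all genes put in 4 classes of equal size by genomic span, 33 of the 67 members were in the shortest class, 22 and 7 in the next classes and 5 in the longest. Over both strains on day 6 the median change of all genes was 0.04, 0.03, −0.02 and −0.12 from the shortest to the longest class, and that of the members 0.26, 0.31, 0.35 and 0.16. The part of gene span in the members' changes was not tested beyond these values.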
